A study of Mus musculus with 12 samples.

Results

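The collagens, laminins and matrix remodelling enzymes are the gene families that build, cross-link and cut the extracellular matrix. They were taken here by gene symbol: the numbered collagen chains, the laminin chains, the matrix metalloproteinases (MMPs), their tissue inhibitors (TIMPs), the lysyl oxidases and the ADAMTS proteases, 104 genes of the 56980 in the deposited table. RNA was sequenced from livers of male B6.Cg-Lepob/J mice, which are ob/ob and carry the genotype Lep-/-. The mice were 8 weeks old at the start and 11 weeks old at sampling. For 3 weeks they ate, without restriction, a chow with 25% of its energy from protein (SPD, 6 mice) or a chow with 5% of its energy from protein (LPD, 6 mice). Every mouse in both groups lacks leptin, so all values describe obese, leptin-deficient liver, and no lean mouse was analysed here.

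Collagens are trimeric proteins. The fibril-forming types give tissue its tensile strength, type IV forms the sheet of the basement membrane together with the laminin network, and smaller types decorate fibrils or link both layers. Lysyl oxidases cross-link the fibrils, MMPs and ADAMTS enzymes cut matrix proteins, and TIMPs block the MMPs. In liver, the stellate cells of the space of Disse are the main source of fibrillar collagen when they are activated, endothelial cells contribute basement membrane components, and macrophages are a source of several MMPs.

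Total counts per library ran from 19374676 to 23710930, and between 18094 and 18998 genes had a count. Levels are given in CPM, the count scaled to library depth. The label liver was checked on 10 hepatocyte markers, which summed to between 86536 and 112873 CPM per liver. One LPD library, replicate 1, is LPD by its title and library code, while its treatment label names the 25% diet. It is kept as LPD here, and the calls of matrix genes that change when it is counted as SPD are named. On the first principal component, which held 47.1% of the variance of log2 CPM, all LPD livers lay apart from all SPD livers, and LPD replicates 2 and 5 lay furthest out, at 48.7 and 44.6 against 15.3 to 22.5 for the other 4. All LPD libraries carry the codes LP4 or LP5 and all SPD libraries SP1 or SP2, so whatever these codes stand for and the diet cannot be told apart. In bulk liver RNA, fewer cells of a type and less RNA per cell cannot be told apart either.

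Of the 104 matrix genes, 64 passed the filter on low counts and were tested with edgeR's quasi-likelihood test, with Benjamini-Hochberg adjustment over all 13768 tested genes. Under the low-protein diet 26 of the 64 fell and 3 rose at an adjusted p under 0.05, and 35 did not pass. The 26 are 40.6% of the tested matrix genes, where 19.2% of all tested genes fell. The 3 are 4.69%, where 20.7% of all tested genes rose. The median log2 fold change (LPD over SPD) was -0.42 over the 64, and near 0 over all tested genes. With no overlap between the 6 SPD and the 6 LPD livers, 11 matrix genes were lower (9.73% of all tested genes were) and 2 were higher (10.2% of all tested genes were). Without LPD replicates 2 and 5, 22 fell (15.8% of all tested genes) and 4 rose (16.7% of all tested genes), with a median of -0.22.

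**Figure D1:**
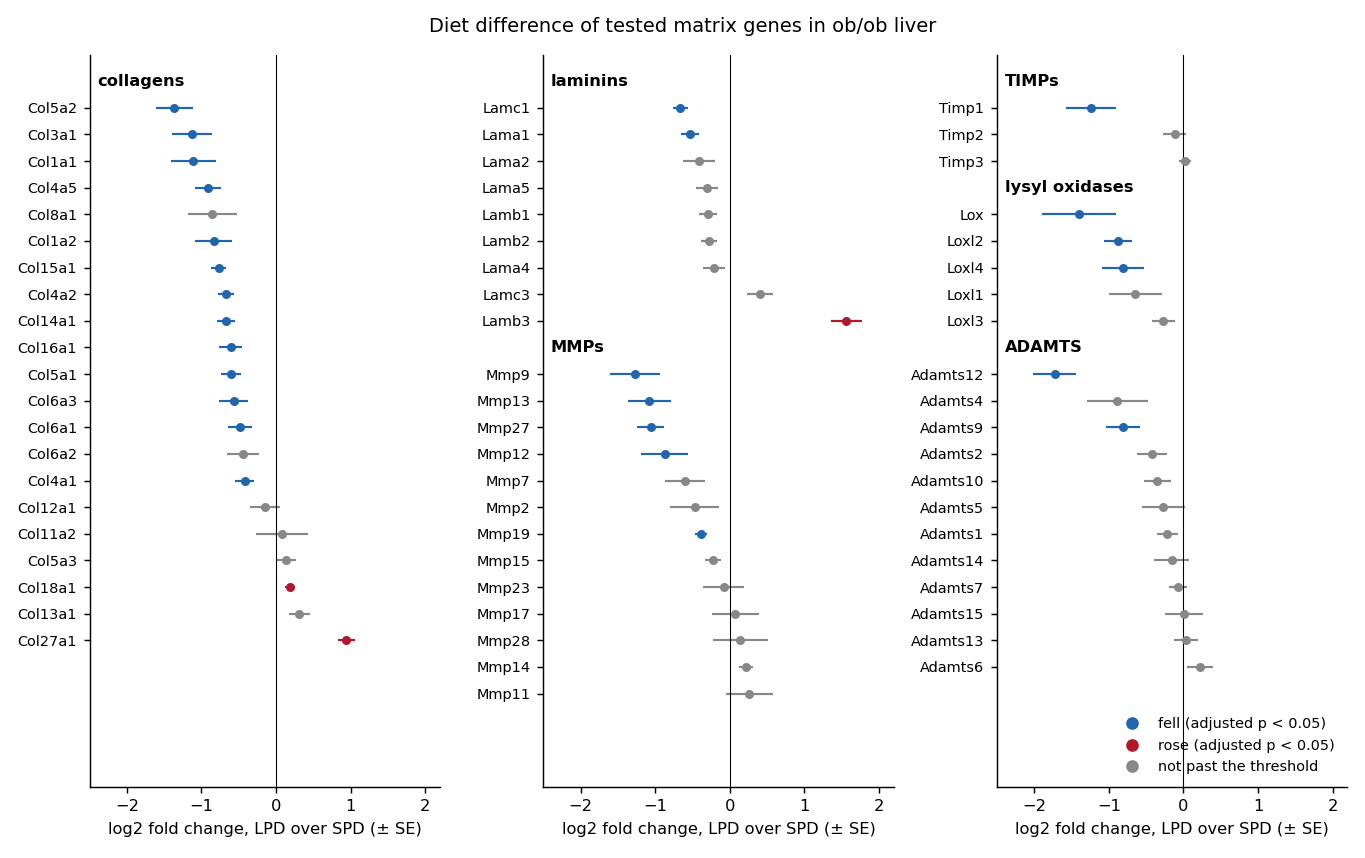
Log2 fold change (LPD over SPD, x axis) of tested matrix genes by family (those reported here), as points with bars of 1 standard error; blue genes fell, red genes rose and grey genes did not pass an adjusted p of 0.05. The blue points reach from -0.38 for Mmp19 to -1.73 for Adamts12, and the only red points are Col18a1, Col27a1 and Lamb3.

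The families did not contribute equally to that count. Among the collagens 13 of 21 tested genes fell and 2 rose, with a median log2 fold change of -0.61. Of the lysyl oxidases 3 of 5 fell and none rose (median -0.81), and of the MMPs 5 of 13 fell and none rose (median -0.38). Of the laminins 2 of 10 fell and 1 rose (median -0.30), of the TIMPs 1 of 3 fell (median -0.11), and of the ADAMTS genes 2 of 12 fell (median -0.24). The laminin and ADAMTS counts of 2 are near the 19.2% of all tested genes, and each was 4 without LPD replicate 1. No difference between families was tested. The filter left out 40 of the 104 genes, 23 of them collagens, and 7 of the 40 (Col2a1, Col19a1, Col26a1, Mmp10, Mmp20, Mmp21 and Adamts19) had no count in any of the 12 livers. Of the 64 tested genes 51 reached the count minimum in all 12 livers, and 21 of these 51 fell. A further 10 reached it in more SPD than LPD livers, which favours genes that are high under SPD, and 5 of those 10 fell (Mmp9, Timp1, Lox, Loxl4 and Adamts12).

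Fibril-forming collagens make up the bulk of scar matrix, and types I, III and V assemble into the same fibrils. Col3a1 (chr1:45311538-45349706, GRCm38, plus strand), the single chain of type III, had levels of 67.3 CPM at the lowest, 102 at the median and 113 at the highest in SPD livers. In LPD livers these were 19.7, 41.1 and 79.0. LPD replicates 5 and 2 were the lowest at 19.7 and 22, and LPD replicate 1 was the highest and the only one inside the SPD range. The log2 fold change was -1.13 ± 0.27 (SE), a 2.19-fold lower level (edgeR adjusted p = 0.00375). The 2 chains of type I, chosen for a full account after their values were seen, had the same order of livers at both ends. Col1a1 had 21.4, 30.6 and 41.2 CPM (lowest, median, highest) in SPD livers and 6.42, 11.3 and 31.2 in LPD livers, with LPD replicate 1 again highest. It fell by 1.11 ± 0.30 on the log2 scale (edgeR adjusted p = 0.00839). Col1a2 had 40.7, 47.1 and 62.0 CPM under SPD and 13.9, 27.0 and 49.7 under LPD, and fell by 0.84 ± 0.25 on the log2 scale (edgeR adjusted p = 0.0135). In both, LPD replicate 1 lay inside the SPD range and the other 5 LPD livers lay below it. In the libraries coded SP1 and LP4 alone, 4 per diet, neither type I chain passed (edgeR adjusted p = 0.0854 for Col1a1 and 0.0983 for Col1a2). Without LPD replicates 2 and 5 the change of Col1a2 was -0.53 (edgeR adjusted p = 0.0297).

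Type V collagen sits in the core of type I fibrils and limits their width. Col5a2, one of its chains, had 6.76, 11.8 and 15.6 CPM in SPD livers and 2.51, 3.92 and 7.79 in LPD livers. The ranges overlapped only through LPD replicate 1 at 7.79 and SPD replicate 1 at 6.76. Col5a2 fell by 1.37 ± 0.25 on the log2 scale (edgeR adjusted p = 0.000489), the lowest value of any tested collagen. It lies tail to tail with Col3a1 on chromosome 1, with 24614 bases between them, and both fell. Col5a1, the other main chain, had 11.9, 14.0 and 17.5 CPM under SPD and 7.32, 9.61 and 11.6 under LPD with no overlap, and fell by 0.61 ± 0.14 on the log2 scale (edgeR adjusted p = 0.00244). The third chain did not pass: Col5a3 had a log2 fold change of 0.13 ± 0.13 (edgeR adjusted p = 0.447), with a median of 13.8 CPM under SPD and 15.2 under LPD. Col11a2, a minor fibril chain near the detection limit, also did not pass (log2 fold change 0.08, edgeR adjusted p = 0.880).

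One fibril-forming collagen rose. Col27a1 (chr4), best known from cartilage, had 3.75, 4.29 and 5.33 CPM in SPD livers and 6.73, 8.67 and 9.42 in LPD livers. No LPD liver lay within the SPD range, and LPD replicates 2 and 5, at 8.41 and 9.42, were not apart from the others. The log2 fold change was 0.94 ± 0.11 (edgeR adjusted p = 1.28e-05), and 0.91 without those 2 livers.

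Type IV collagen is the network of the basement membrane, and Col4a1 and Col4a2 form its most widespread trimer. The pair lies head to head on chromosome 8 and is known to be transcribed in opposite directions from a shared promoter. The start regions are shown because both genes fell. In RefSeq (GRCm38.p6), the window from 250 bases before to 50 bases after the start was chr8:11312777-11313076 on the minus strand for Col4a1 and chr8:11312555-11312854 on the plus strand for Col4a2. The starts lie 21 bases apart and the windows share 78 bases, in capitals, which read in opposite directions in the 2 genes:
Col4a1: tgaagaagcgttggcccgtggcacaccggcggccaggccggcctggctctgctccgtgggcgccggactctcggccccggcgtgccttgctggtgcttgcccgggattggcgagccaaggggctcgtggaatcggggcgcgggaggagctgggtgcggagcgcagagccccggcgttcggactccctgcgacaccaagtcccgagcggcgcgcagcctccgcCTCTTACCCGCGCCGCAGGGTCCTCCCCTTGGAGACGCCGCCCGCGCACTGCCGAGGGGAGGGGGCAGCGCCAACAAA
Col4a2: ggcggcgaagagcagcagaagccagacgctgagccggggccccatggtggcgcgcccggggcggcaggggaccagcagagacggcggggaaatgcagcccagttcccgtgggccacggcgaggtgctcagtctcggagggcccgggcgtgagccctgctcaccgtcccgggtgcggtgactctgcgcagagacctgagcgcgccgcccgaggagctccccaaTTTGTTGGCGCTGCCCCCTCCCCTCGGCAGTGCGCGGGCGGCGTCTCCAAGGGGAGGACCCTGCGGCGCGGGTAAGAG
Both windows hold the letters GGGCGG (the GC box) and CCAAT at least once on either strand. Over all 32851 RefSeq windows of this length 35.7% hold GGGCGG and 37.4% hold CCAAT. Among the 71 matrix genes with a window, 44 hold GGGCGG and 23 hold CCAAT, and among the 17 that fell and have a window, 9 and 7 do.

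Col4a1, chosen for a full account after its values were seen, had 97.7, 103 and 117 CPM in SPD livers and 54.0, 87.5 and 92.4 in LPD livers. The diets did not overlap, and within LPD the libraries split into replicates 2 and 5, at 54.0 and 55.4, and the other 4, at 86.5 to 92.4. It fell by 0.42 ± 0.13 on the log2 scale (edgeR adjusted p = 0.0156). Without LPD replicates 2 and 5 the change was -0.22 (edgeR adjusted p = 0.0111), and in the libraries coded SP1 and LP4 alone it did not pass (edgeR adjusted p = 0.104). Col4a2 had 56.7, 62.6 and 68.7 CPM under SPD and 29.98, 39.8 and 48.6 under LPD. It fell by 0.67 ± 0.11 on the log2 scale (edgeR adjusted p = 0.000174), and by 0.53 without LPD replicates 2 and 5, again with no overlap between the diets. Whether the 2 partners differed from each other in their response was not tested. Col4a5, an X-linked chain of a second type IV trimer, had 3.48, 4.16 and 6.76 CPM under SPD and 1.97, 2.44 and 2.76 under LPD with no overlap. It fell by 0.91 ± 0.18 on the log2 scale (edgeR adjusted p = 0.000838), and here LPD replicates 2 and 5 lay above the LPD median. Its head-to-head partner Col4a6, Col4a3 and Col4a4 were too low to test.

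Type VI collagen forms beaded filaments next to basement membranes. Its 3 tested chains were chosen for values after they were seen. Col6a1 had 15.7, 19.1 and 21.1 CPM under SPD and 8.07, 13.4 and 19.4 under LPD, and fell by 0.48 ± 0.16 on the log2 scale (edgeR adjusted p = 0.0285). Col6a3 fell by 0.57 ± 0.19 on the log2 scale (edgeR adjusted p = 0.0271), and Col6a2 had a change of -0.44 ± 0.21 (edgeR adjusted p = 0.110). For all 3 chains LPD replicates 2 and 5 were the lowest of the 12 livers, and LPD replicate 1 lay within or above the SPD range. Neither call held without LPD replicates 2 and 5: Col6a1 then had a change of -0.27 (edgeR adjusted p = 0.0997) and Col6a3 of -0.32 (edgeR adjusted p = 0.0905). Leaving out SPD replicate 3, 4 or 6 or LPD replicate 2 or 3 also ended the call of Col6a1, with edgeR adjusted p-values from 0.0528 to 0.0620, and leaving out SPD replicate 3 or LPD replicate 2 or 3 ended that of Col6a3, with values from 0.0570 to 0.0627.

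Among the collagens that bind to fibril surfaces, Col14a1, which regulates fibril growth, had 84.0, 94.6 and 128 CPM in SPD livers. In LPD livers it had 52.5, 62.8 and 77.9, all below the SPD livers. It fell by 0.67 ± 0.12 on the log2 scale (edgeR adjusted p = 0.000513), and Col16a1 fell by 0.61 ± 0.15 (edgeR adjusted p = 0.00568), also with no overlap. Col12a1, of the same group, had a log2 fold change of -0.14 ± 0.20 (edgeR adjusted p = 0.609). The short-chain collagen Col8a1 just missed the threshold at -0.85 ± 0.33 (edgeR adjusted p = 0.0527), and the transmembrane collagen Col13a1 had a change of 0.31 ± 0.14 (edgeR adjusted p = 0.0884).

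Collagens XV and XVIII carry glycosaminoglycan chains and lie in or next to basement membranes, and they went in opposite directions. Col15a1 had 14.0, 14.6 and 17.9 CPM under SPD and 7.08, 9.39 and 10.3 under LPD. No LPD liver reached the SPD range, and LPD replicates 2 and 5 were the highest 2 LPD livers. Col15a1 fell by 0.77 ± 0.10 on the log2 scale (edgeR adjusted p = 2.80e-05), and by 0.86 without those 2 livers. Col18a1 is the source of endostatin and a gene that hepatocytes express. Among the 104 genes taken by symbol it was by far the most abundant. It had 108 CPM per kilobase of gene length under SPD and 122 under LPD. The next of these genes was Mmp19 at 24 under SPD, and Mmp14 at 22.01 under LPD. Col18a1 had 584, 595 and 637 CPM under SPD and 627, 664 and 772 under LPD, where replicates 2 and 5 were the highest at 741 and 772. It rose by 0.18 ± 0.06 on the log2 scale (edgeR adjusted p = 0.0275), with overlapping ranges. The call ended without LPD replicates 2 and 5 (0.11, edgeR adjusted p = 0.140), and with any one of SPD replicates 4 or 6 or LPD replicates 2 or 5 left out (edgeR adjusted p from 0.05002 to 0.0614). It also ended with LPD replicate 1 counted as SPD (edgeR adjusted p = 0.0788).

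**Figure D2:**
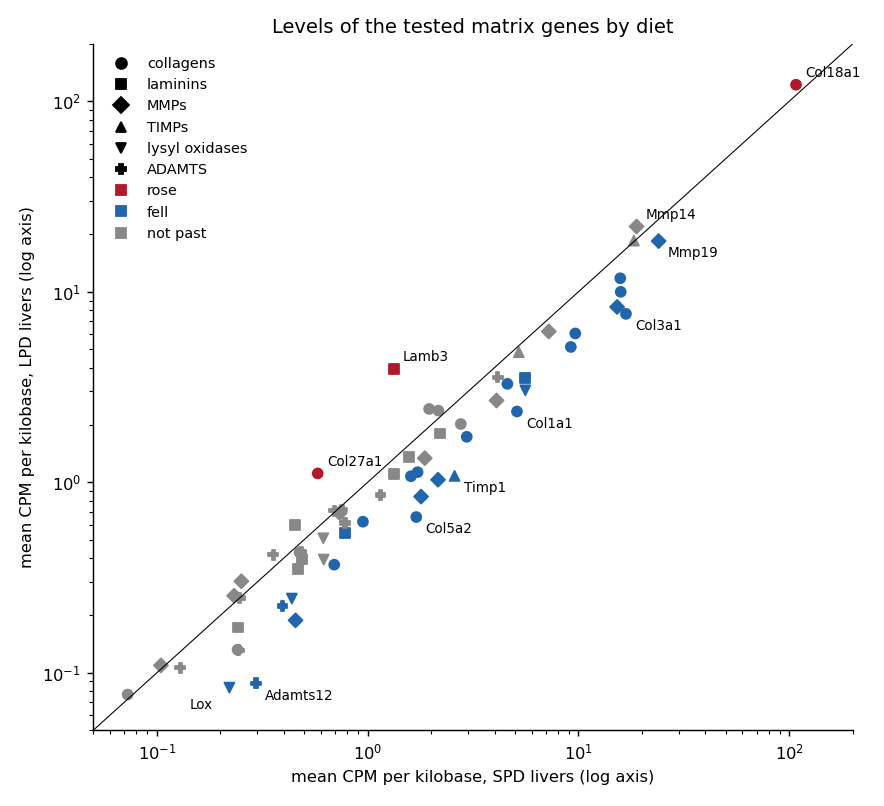
Mean level of each tested matrix gene in CPM per kilobase, SPD livers on the x axis and LPD livers on the y axis (both log axes), with equal levels on the line, shapes for families and colours for the test. Col18a1 stands alone at the top at 108 and 122, Lamb3 and Col27a1 lie above the line, and the blue genes that fell lie below it over the whole range of levels.

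Laminins are trimers of an alpha, a beta and a gamma chain. Lamc1, the gamma chain of most laminins, had 37.8, 42.1 and 48.9 CPM in SPD livers and 21.9, 26.9 and 31.5 in LPD livers. No livers overlapped, and LPD replicates 2 and 5 were the lowest at 21.9 and 22.7. Lamc1 fell by 0.66 ± 0.10 on the log2 scale (edgeR adjusted p = 0.000101). Lama1, an alpha chain best known from the embryo, had 5.97, 7.62 and 9.33 CPM under SPD and 4.42, 5.11 and 6.00 under LPD. The ranges touched at SPD replicate 2 and LPD replicate 4. It fell by 0.53 ± 0.12 on the log2 scale (edgeR adjusted p = 0.00235), and did not pass in the libraries coded SP1 and LP4 alone (edgeR adjusted p = 0.0631). The main beta partners did not pass: Lamb1 had a change of -0.29 ± 0.12 (edgeR adjusted p = 0.0739) and Lamb2 of -0.28 ± 0.11 (edgeR adjusted p = 0.0547). Lama2, Lama4 and Lama5 lay between -0.42 and -0.21 and did not pass either.

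Lamb3 went the other way. It encodes the beta chain of laminin-332, the anchoring laminin of epithelia. Its levels were 5.65, 6.35 and 7.51 CPM in SPD livers and 12.0, 15.4 and 33.0 in LPD livers. Every LPD liver was above every SPD liver, and LPD replicates 2 and 5 were the highest at 33.0 and 24.8. The log2 fold change was 1.56 ± 0.21 (edgeR adjusted p = 4.35e-05), and 1.15 without those 2 livers (edgeR adjusted p = 1.92e-06). Lama3, the alpha chain of the same laminin, was too low to test, with 119 counts over all 12 libraries. Per kilobase, Lamb3 stood at 1.33 CPM under SPD and 3.95 under LPD.

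Lysyl oxidases oxidise lysines in collagen and elastin and so start the cross-links between fibrils. Loxl2, which also acts on type IV collagen, was the most abundant of the 5, with 13.9, 17.1 and 20.4 CPM under SPD. Under LPD it had 5.65, 9.25 and 14.0, and replicate 1 alone touched the SPD range. It fell by 0.87 ± 0.19 on the log2 scale (edgeR adjusted p = 0.00196). Lox and Loxl4 were close to the count minimum. Lox had 0.435, 1.10 and 1.27 CPM under SPD and 0, 0.254 and 1.05 under LPD, with no count in LPD replicate 6, and changed by -1.40 ± 0.50 (edgeR adjusted p = 0.0361). Loxl4 had 0.773, 1.15 and 1.52 CPM under SPD and 0.301, 0.613 and 1.07 under LPD, and changed by -0.81 ± 0.28 (edgeR adjusted p = 0.0323). Both calls lay near the threshold and were lost in many fits with 1 liver left out, with the direction kept: that of Lox ended without any one of SPD replicates 2 to 5 or LPD replicates 2 to 5 (log2 fold changes -1.45 to -1.31, edgeR adjusted p from 0.0511 to 0.0708), and that of Loxl4 without SPD replicate 2, 4 or 5 or LPD replicate 2, 3 or 5 (log2 fold changes -0.80 to -0.67, edgeR adjusted p from 0.0552 to 0.0775). Loxl1 and Loxl3 did not pass, at -0.65 and -0.27.

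The MMPs are zinc proteases that cut matrix proteins, and no tested MMP rose. Mmp19, a secreted MMP, was the highest of them in CPM, with 72.3, 82.1 and 89.8 under SPD and 54.4, 60.1 and 74.8 under LPD. It differed from most of the genes that fell in that LPD replicates 2 and 5 were its highest LPD livers, at 74.8 and 71.0. Mmp19 fell by 0.38 ± 0.08 on the log2 scale (edgeR adjusted p = 0.00168), and by 0.50 without them. Its exons share 22.3% of their bases with Tmem198b on the opposite strand, and the sources used here do not say whether reads were counted by strand. Tmem198b itself had a mean of 4.26 CPM under SPD, against 81.7 for Mmp19.

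Several MMP genes lie in a cluster on chromosome 9. Of the genes taken here by symbol it holds, in order, Mmp13, Mmp12, Mmp3, Mmp10, Mmp8, Mmp27, Mmp20 and Mmp7. Of the 4 of these that were tested, Mmp13, Mmp12 and Mmp27 fell and Mmp7, the matrilysin, did not pass (-0.60 ± 0.27, edgeR adjusted p = 0.0863). Their start windows are shown for the letters that members of the cluster share or lack. Capitals mark TGANTCA, the letters bound by AP-1, and TATAAA, the TATA box, searched on both strands; the 2 do not overlap here. The RefSeq windows (GRCm38.p6, plus strand) are chr9:7272264-7272563 for Mmp13, chr9:7347124-7347423 for the downstream start of Mmp12 and chr9:7571146-7571445 for Mmp27:
Mmp13: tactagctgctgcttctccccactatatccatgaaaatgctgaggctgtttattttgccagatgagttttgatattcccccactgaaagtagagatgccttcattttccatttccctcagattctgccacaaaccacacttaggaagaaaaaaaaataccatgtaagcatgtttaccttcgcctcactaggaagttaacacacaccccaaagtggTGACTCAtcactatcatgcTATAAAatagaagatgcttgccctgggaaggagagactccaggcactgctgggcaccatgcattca
Mmp12: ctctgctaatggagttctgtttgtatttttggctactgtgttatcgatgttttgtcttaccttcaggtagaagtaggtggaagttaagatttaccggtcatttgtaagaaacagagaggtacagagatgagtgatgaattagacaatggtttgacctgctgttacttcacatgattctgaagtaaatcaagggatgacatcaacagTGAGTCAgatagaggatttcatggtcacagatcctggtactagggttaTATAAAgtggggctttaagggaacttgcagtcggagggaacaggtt
Mmp27: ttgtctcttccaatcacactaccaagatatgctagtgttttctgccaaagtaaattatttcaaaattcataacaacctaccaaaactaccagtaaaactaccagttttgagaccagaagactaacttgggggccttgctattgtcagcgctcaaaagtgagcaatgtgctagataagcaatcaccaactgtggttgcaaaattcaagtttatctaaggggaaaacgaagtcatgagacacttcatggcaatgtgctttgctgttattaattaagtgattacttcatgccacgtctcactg
The windows of Mmp13 and the downstream start of Mmp12 each hold both motifs. In Mmp13 both stand before the start. In Mmp12 TGANTCA stands before the start and TATAAA just after it. The window of Mmp27 and the upstream window of Mmp12 hold neither motif. Both motifs also stand in a window of Mmp7, which did not pass, and in those of Mmp3, Mmp10 and Mmp20, which were too low to test. TGANTCA stands in 7.81% of all 32851 windows and in those of 7 of the 71 matrix genes. Of the 17 genes with a window that fell, 3 hold it: Mmp12, Mmp13 and Col6a1. TATAAA stands in 13.6% of all windows, in those of 14 of the 71 matrix genes, and in those of 3 of the 17: Mmp12, Mmp13 and Col3a1. A match is a string of letters and says nothing about binding.

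Mmp12, the macrophage elastase, and Mmp13, the main interstitial collagenase of the mouse, were chosen for a full account after their values were seen. Mmp12 had 44.2, 56.0 and 62.3 CPM in SPD livers and 8.87, 30.3 and 58.2 in LPD livers. LPD replicates 5 and 2 were far below the rest at 8.87 and 12.3, while LPD replicate 3, at 58.2, was as high as the upper SPD livers. It fell by 0.87 ± 0.32 on the log2 scale (edgeR adjusted p = 0.0402), and by 0.47 without LPD replicates 2 and 5 (edgeR adjusted p = 0.0384). The call ended without any one of SPD replicates 2 to 6 or LPD replicates 2 or 6 (edgeR adjusted p from 0.0588 to 0.0735), with LPD replicate 1 counted as SPD (edgeR adjusted p = 0.0797) and under the DESeq2 Wald test (adjusted p = 0.0591). Mmp13 had 3.05, 4.48 and 7.80 CPM under SPD and 1.01, 2.59 and 3.14 under LPD. LPD replicates 2 and 5 were lowest at 1.01 and 1.05, and the ranges overlapped slightly. It fell by 1.08 ± 0.29 on the log2 scale (edgeR adjusted p = 0.00796), and did not pass in the libraries coded SP1 and LP4 alone (edgeR adjusted p = 0.106). Mmp27 had 2.78, 3.37 and 4.98 CPM under SPD and 1.15, 1.77 and 2.11 under LPD, with no overlap. It fell by 1.06 ± 0.18 on the log2 scale (edgeR adjusted p = 0.000265).

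The gelatinases cut denatured collagen and type IV collagen. Mmp9, the form of neutrophils and macrophages, was low, at 0.739, 1.43 and 2.0 CPM under SPD and 0.241, 0.552 and 1.0 under LPD. It fell by 1.27 ± 0.34 on the log2 scale (edgeR adjusted p = 0.00725), with overlapping ranges, and did not pass in the libraries coded SP1 and LP4 alone (edgeR adjusted p = 0.183). Mmp2, the stromal form, had a change of -0.47 ± 0.33 (edgeR adjusted p = 0.271), with LPD replicate 5 at 0.802 CPM and LPD replicate 1 at 7.52. Mmp14, the membrane-bound activator of Mmp2, was chosen after its values were seen. It had 40.6, 49.6 and 56.7 CPM under SPD and 46.2, 58.1 and 63.4 under LPD, and a change of 0.22 ± 0.10 (edgeR adjusted p = 0.0754). It passed as higher without LPD replicates 2 and 5 (0.29, edgeR adjusted p = 0.0320), and also when SPD replicate 4 or 6 or LPD replicate 5 was left out.

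TIMPs bind and block active MMPs. Timp1, the form that is induced in injured liver, had 1.5, 2.12 and 2.80 CPM under SPD and 0.338, 0.730 and 1.82 under LPD. LPD replicates 2 and 5 were lowest and LPD replicate 1 was highest, inside the SPD range. It fell by 1.24 ± 0.33 on the log2 scale (edgeR adjusted p = 0.00808). Timp3, the TIMP that stays bound to matrix, was far more abundant per kilobase, at 18.3 CPM against 2.58 under SPD. It had 73.4, 86.2 and 98.9 CPM under SPD and 71.2, 88.2 and 98.3 under LPD. Its log2 fold change was 0.02 ± 0.08 (edgeR adjusted p = 0.890), and its sign turned when single libraries were left out. Its exons share 21.3% of their bases with Syn3 on the opposite strand, which had a mean of 0.983 CPM under SPD. Timp2 had a change of -0.11 ± 0.16 (edgeR adjusted p = 0.593).

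The ADAMTS proteases trim procollagens and cut proteoglycans. Adamts12 had the largest change of any tested matrix gene. Its levels were 1.55, 2.35 and 3.75 CPM in SPD livers and 0.351, 0.684 and 1.32 in LPD livers, with no overlap. The LPD levels rest on 7 to 29 counts per library, against 32 to 76 under SPD. Here LPD replicate 3 and not replicate 2 or 5 was the lowest. It was 3.31-fold lower under LPD (log2 fold change -1.73 ± 0.29, edgeR adjusted p = 0.000275). Adamts9, a proteoglycanase, had 2.61, 3.28 and 3.64 CPM under SPD and 0.652, 1.93 and 2.46 under LPD, with no overlap, and fell by 0.81 ± 0.23 on the log2 scale (edgeR adjusted p = 0.0102). Adamts1, the most abundant of the family in CPM, had 17.3, 20.8 and 22.6 under SPD and 13.0, 16.0 and 23.9 under LPD. Its change of -0.21 ± 0.14 did not pass (edgeR adjusted p = 0.228). The procollagen N-proteinases Adamts2 and Adamts14, which remove the N-terminal propeptide of fibrillar collagens, had changes of -0.42 and -0.16 that did not pass. Adamts13, which cuts von Willebrand factor and is made by stellate cells, had a change of 0.03 ± 0.16 (edgeR adjusted p = 0.887).

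The decrease was uneven across the LPD livers. For 35 of the 64 tested matrix genes LPD replicates 2 and 5 were the lowest 2 LPD livers, a pattern seen in 17.6% of all tested genes, and for 29 of the 64 they were the lowest 2 of all 12 livers, which held for 12.5% of all tested genes. They were the highest 2 LPD livers for 5 of the 64, against 15.5% of all tested genes. Over the 26 genes that fell, the median level was 38.2% of the SPD mean in these 2 livers and 67.3% in the other 4 LPD livers, and the 2 livers were lower than the 4 for 23 of the 26. The exceptions are Col15a1, Col4a5 and Mmp19. The 26 genes were called with these 2 livers in the fit, and the same values over all genes that fell were not computed. Over all tested genes these 2 livers also lay furthest out on the first principal component. LPD replicate 1, whose labels conflict, was at the other end: it was the highest LPD liver for 31 of the 64 genes (48.4%) and for 15 of the 26 that fell (57.7%). For comparison, it was the highest LPD liver for 15.9% of all tested genes and 27.8% of all genes that fell. With LPD replicate 1 counted as SPD, 32 matrix genes fell and 2 rose: Adamts2, Adamts4, Col6a2, Col8a1, Lama4, Loxl1 and Mmp7 then passed as lower, and Mmp12 and Col18a1 no longer passed.

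**Figure D3:**
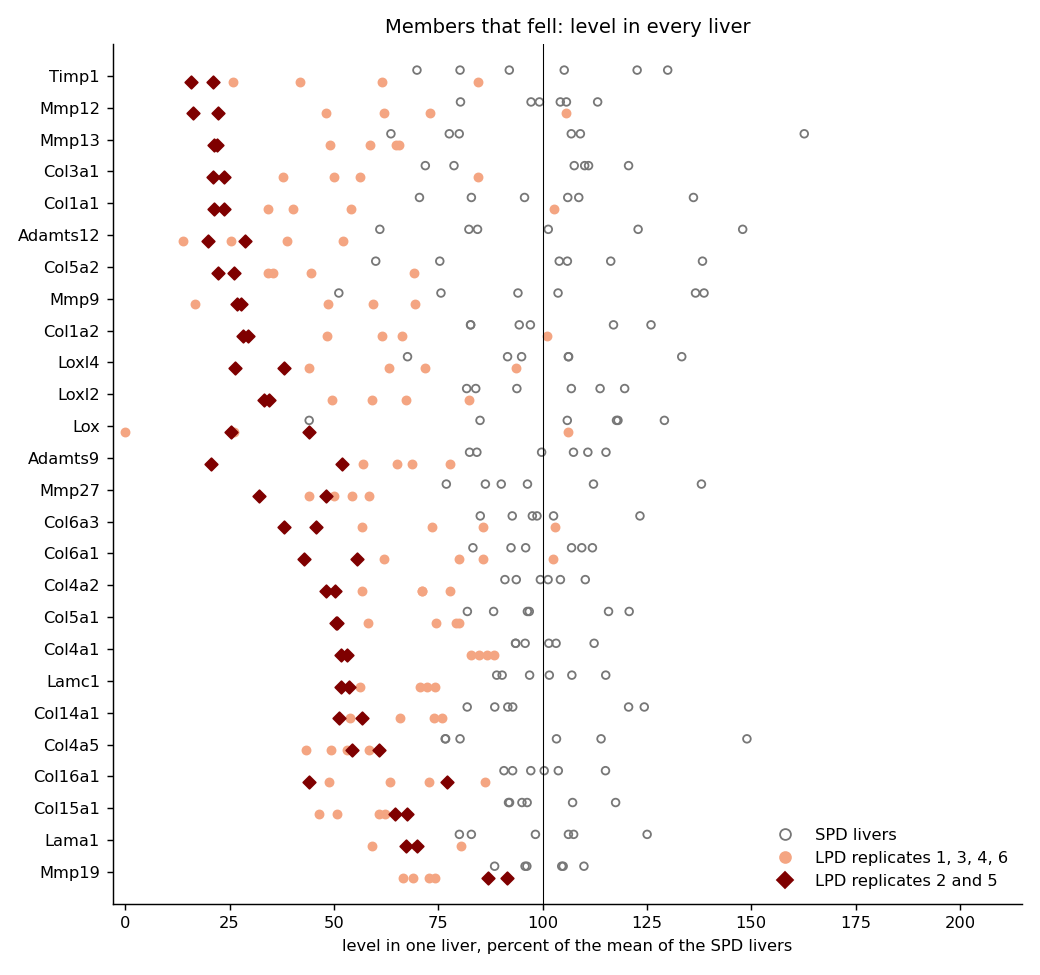
Level of the 26 genes that fell, in each liver, as a percentage of the mean of the SPD livers (x axis, line at 100), with SPD livers as open circles, LPD replicates 1, 3, 4 and 6 as light points and LPD replicates 2 and 5 as dark diamonds. The diamonds lie left of the light points for most genes and right of them for Mmp19 and Col15a1.

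Summed over a class, the same livers stood apart in some classes and not in others. The 11 fibril-forming genes summed to between 172 and 266 CPM in SPD livers. In LPD livers they summed to 75.9 CPM in replicate 5 and 81.0 in replicate 2, between 102 and 144 in replicates 3, 4 and 6, and 198 in replicate 1. The 6 type IV genes summed to between 161 and 190 CPM under SPD, to 88.9 and 88.7 in LPD replicates 2 and 5, and to between 127 and 140 in the other 4 LPD livers, so that the diets did not overlap. For type VI the SPD sums were 41.1 to 55.1 CPM, LPD replicates 2 and 5 were at 22.9 and 19.4, and LPD replicate 1 was at 49.4. Collagens XV and XVIII, a sum that is mostly Col18a1, ran from 600 to 651 CPM under SPD and from 634 to 782 under LPD, with replicates 2 and 5 highest. The laminins were lowest in LPD replicate 3, at 76.1 CPM, with replicates 2 and 5 at 94.5 and 82.0. All collagens together were also lowest in LPD replicate 3, at 963 CPM, with replicates 2 and 5 at 1019 and 1034. Summed over all 104 genes the level was 1621 to 1798 CPM under SPD and 1419 to 1650 under LPD, with overlap between the diets. LPD replicates 3, 5 and 2 were lowest there, at 1419, 1419 and 1428 CPM.

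**Figure D4:**
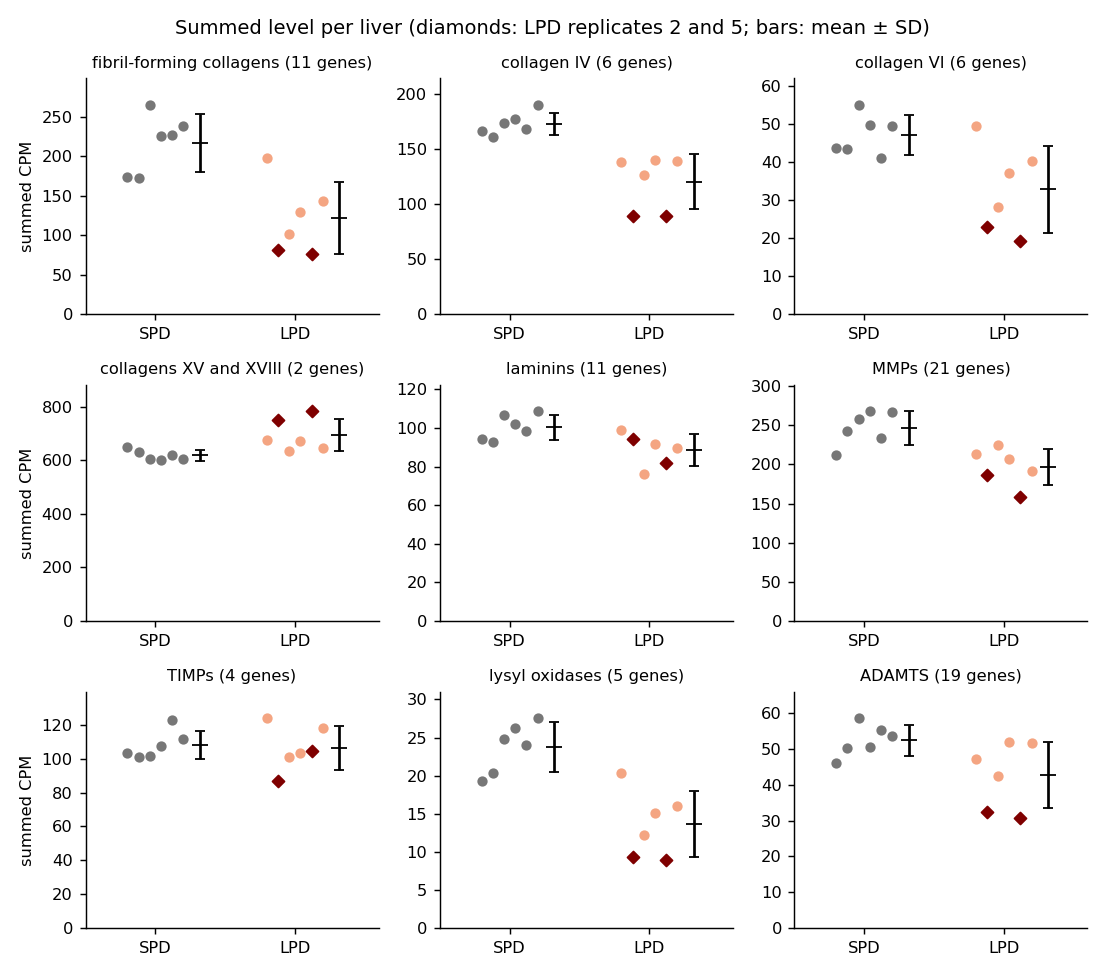
Summed CPM per liver (y axes from 0) for 9 classes of matrix genes, with SPD livers as grey points, LPD livers as light points, LPD replicates 2 and 5 as dark diamonds, and bars for the mean ± SD of the 6 livers of a diet. For type IV collagen the SPD livers at 161 to 190 lie above every LPD liver, and for collagens XV and XVIII the diamonds lie above all other livers.

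The wider matrix pathway was taken as 6 lists of genes outside these families, with 135 tested genes. Of these 44 fell (32.6%, against 19.2% of all tested genes) and 15 rose (11.1%, against 20.7%). Without LPD replicates 2 and 5, 28 fell and 14 rose. In that fit 15.8% of all tested genes fell and 16.7% rose. Collagen processing and secretion had 24 tested genes, of which 6 fell and 2 rose (median -0.17). Crtap, part of the complex that hydroxylates collagen prolines, fell from 9.85 ± 0.502 to 5.72 ± 0.404 CPM (mean ± SD, n = 6 per diet), by 0.78 ± 0.08 on the log2 scale (edgeR adjusted p = 2.90e-06). Pcolce, which enhances C-propeptide removal, fell by 0.88 ± 0.12 (edgeR adjusted p = 4.44e-05), while Bmp1, the C-proteinase itself, rose by 0.33 ± 0.05 (edgeR adjusted p = 0.000133). The count of 6 dropped to 3 when SPD replicate 3 or 6 or LPD replicate 2 was left out, and to 2 without LPD replicates 2 and 5.

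Of the other basement membrane genes 6 of 14 fell and none rose (median -0.19). Nid1 and Nid2 encode the nidogens that link laminin to type IV collagen. Nid2 fell from 9.07 ± 0.787 to 3.69 ± 0.678 CPM (log2 fold change -1.30 ± 0.12, edgeR adjusted p = 1.25e-06), and Nid1 fell from 93.6 ± 13.7 to 46.8 ± 14.2 CPM (-1.0 ± 0.17, edgeR adjusted p = 0.000272). Sparc, a collagen-binding glycoprotein, fell by 0.76 ± 0.09 on the log2 scale (edgeR adjusted p = 1.37e-05). Among the other interstitial genes 10 of 29 fell and 2 rose (median -0.46). There Spon2 fell by 1.43 ± 0.17 (edgeR adjusted p = 1.10e-05), Emilin1, of elastic fibres, by 0.69 ± 0.10 (edgeR adjusted p = 5.76e-05), and Postn, the periostin gene, by 0.67 ± 0.14 (edgeR adjusted p = 0.00160). The count of 10 was 16 without LPD replicate 1 and 4 without LPD replicates 2 and 5. The count of 2 that rose was 1 in 9 of the 12 fits with 1 library left out, all but those without SPD replicate 3 or LPD replicate 3 or 4.

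Matrix receptors split, with 7 of 22 lower and 4 higher (median -0.27). Sdc4, a cell-surface heparan sulphate proteoglycan, rose from 173 ± 18.2 to 301 ± 18.1 CPM (0.80 ± 0.07, edgeR adjusted p = 8.75e-07), and Sdc2 rose by 0.59 ± 0.08 (edgeR adjusted p = 6.07e-05). Itgb1, the shared beta chain of the collagen and laminin integrins, fell by 0.35 ± 0.05 on the log2 scale (edgeR adjusted p = 0.000123). Of the other matrix proteases and inhibitors 10 of 23 fell and 2 rose (median -0.33). Plg, the plasminogen gene of hepatocytes, rose by 0.64 ± 0.10 (edgeR adjusted p = 0.000106), Ctsl rose by 0.33 ± 0.05 (edgeR adjusted p = 0.000194), and Mep1a, a meprin subunit, fell by 2.95 ± 0.49 from a mean of 1.35 CPM (edgeR adjusted p = 0.000252). For TGF-beta signalling, the main inducer of fibrillar collagen genes, 5 of 23 fell and 5 rose (median -0.06), 21.7% each way and near the shares of all tested genes. Its type II receptor Tgfbr2 fell from 107 ± 10.1 to 56.6 ± 9.78 CPM (-0.92 ± 0.10, edgeR adjusted p = 8.68e-06), Smad2 fell by 0.34 ± 0.06 (edgeR adjusted p = 0.000554), and Smad4 rose by 0.26 ± 0.05 (edgeR adjusted p = 0.00140).

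Markers of the cells that make matrix were measured beside these genes, and their part in the result was not tested. The stellate cell list shares Dcn and Ecm1 with the list of other interstitial genes. Of 22 stellate cell markers 5 fell and 3 rose, with a median of -0.21, and none was at 0. The 22.7% that fell are near the 19.2% of all tested genes. The share was 25.0% for the macrophage and 27.8% for the endothelial markers. The stellate cell markers summed to 696 to 964 CPM in SPD livers. Under LPD they summed to 640 and 657 CPM in replicates 2 and 5. The other 4 LPD livers lay at 806 to 948 CPM, within the SPD range. Vipr1 rose by 0.46 ± 0.07 (edgeR adjusted p = 0.000148). The count of 5 stellate markers dropped to 3 when any one of SPD replicates 1, 2, 3, 4 or 6 or LPD replicates 2, 3 or 5 was left out. Of 20 macrophage markers 5 fell and 1 rose (median -0.32). They summed to 1332 to 1720 CPM in SPD livers, and to 890 and 829 in LPD replicates 2 and 5. The other 4 LPD livers lay at 1170 to 1292 CPM. The diets did not overlap, by the narrow margin of 1292 against 1332 CPM. This sum includes Spp1 and was not taken without it. With LPD replicates 2 and 5 left out the median over the macrophage markers was -0.09. Cd9 and Spp1 led the list, with changes of -1.05 ± 0.11 (edgeR adjusted p = 4.46e-06) and -1.95 ± 0.29 (edgeR adjusted p = 8.88e-05), and Spp1 is on the cholangiocyte list too. The macrophage count was 3 when SPD replicate 2 or 3 or LPD replicate 2 or 5 was left out, and 3 without both of the latter.

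Of 18 endothelial markers 5 fell and 1 rose, among them Cdh5 with a change of -0.37 ± 0.06 (edgeR adjusted p = 0.000138) and Tie1 with -0.36 ± 0.06 (edgeR adjusted p = 0.000183). Their sum was 736 to 831 CPM under SPD and 678 to 768 under LPD, with LPD replicates 2 and 5 inside the range of the other LPD livers. Of 9 tested smooth muscle and portal fibroblast markers 3 fell, Entpd2 and Fbln2 among them. Fbln2 and Eln of this list are also on the list of other interstitial genes. The sum of these markers was 38.7 to 64.6 CPM under SPD and 24.9 to 40.1 under LPD. Of 6 tested mesothelial markers 5 fell, with sums of 353 to 501 CPM under SPD and 179 to 319 under LPD that are mostly Krt8, a gene that hepatocytes and cholangiocytes also express. Cholangiocyte markers had 1 of 9 lower (Spp1) and 1 higher (Onecut1), and summed to 189 to 475 CPM under SPD and 74.2 to 160 under LPD, mostly from Spp1. Lymphocyte markers had 1 of 7 lower (Ighm), with a median log2 fold change of -0.01. They summed to 13.3 to 32.7 CPM under SPD and 7.77 to 13.2 under LPD. In the cholangiocyte and lymphocyte sums the diets did not overlap and LPD replicates 2 and 5 were lowest. For the lymphocyte markers the gap was only 13.2 against 13.3 CPM. Neutrophil markers had 1 of 5 lower (S100a8), a call lost in 7 of the 12 fits with 1 library left out, and summed to 7.25 to 19.8 CPM under SPD and 5.03 to 10.1 under LPD. Of 10 hepatocyte markers 5 rose, Cyp3a11 among them, and 1 fell (Trf). Their sum was 106341 and 112873 CPM in LPD replicates 2 and 5, and 86536 to 94833 in the other 4 LPD livers. Under SPD it was 100647 to 110778 CPM. LPD replicates 2 and 5 were the lowest 2 LPD livers for 35 of the 64 tested matrix genes, against 17.6% of all tested genes. Any link between that count and the hepatocyte sums was not tested.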

How the data were processed

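The authors deposited 1 table of gene-level expected counts for 12 mouse liver libraries (estimated counts, 17.1% to 18.9% of the nonzero values not whole), not scaled between libraries. The submitters' processing notes name TopHat, DESeq2 and the mm10 build without version or role; no source used here names the counting program or its use of strand. Per the labels' protocols, RNA was extracted with TRIzol from snap-frozen liver, treated with DNase I and made into TruSeq libraries. The 1542 rows without a symbol were kept in the totals.

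Counts were rounded. edgeR 4.0.16 (R 4.3.3) was run with filterByExpr (minimum count 10, minimum total 15), TMM scaling and the quasi-likelihood F test of LPD against SPD with no further term, tested on simulated data first. P-values were adjusted over all 13768 tested genes by the Benjamini-Hochberg method. The SE is the size of the log2 fold change over the root of F. CPM use TMM-scaled totals, and levels are compared between genes per kilobase of the deposited gene length. Coordinates are from GENCODE M21 (GRCm38), and start windows from RefSeq (GRCm38.p6), which had 71 of the 104 genes. The labels name 6 mice per diet, and p-values measure the spread between these samples. Values per liver are given for the called genes with the smallest adjusted p (up to 8 collagens, up to 3 of each other family) and the most abundant gene of each family in CPM, and others are named as chosen after their values were seen; of the other lists, up to 3 called genes with the smallest adjusted p are named (up to 2 of a marker list). The genes and lists were chosen with earlier results of these data known. Values of a few single genes are not reported here, although the counts include them. A protein sequence comparison was not run. No 2 libraries were duplicates.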

Additional observations from a re-analysis of the deposited data

How the results depend on the processing

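The 17 matrix genes Adamts9, Adamts12, Col3a1, Col4a2, Col4a5, Col5a1, Col5a2, Col14a1, Col15a1, Col16a1, Col27a1, Lamb3, Lamc1, Loxl2, Mmp19, Mmp27 and Timp1 were called in the same direction in all 23 fits, the one reported and 22 alternatives: other scaling (DESeq2 size factors, upper quartile), other filters (none, 1 CPM in 6 libraries), the DESeq2 1.42.0 Wald test, limma-voom 3.58.1, a replicate block, each library left out, LPD replicates 2 and 5 left out, LPD replicate 1 counted as SPD, and the libraries coded SP1 and LP4 alone (4 per diet). With those 8 libraries, 15 matrix genes fell (8 collagens fell, 1 collagen rose), 28 genes of the other matrix lists fell, and 1693 of all genes fell and 1827 rose; fewer samples enter this fit. limma-voom called 5 matrix genes higher. Only 1 collagen rose with LPD replicates 2 and 5 left out or LPD replicate 1 counted as SPD, and 28 genes of the other lists fell without LPD replicates 2 and 5. With each library left out in turn, 21 to 34 matrix genes fell and 3 to 4 rose, 11 to 15 collagens fell and 1 to 2 rose, 34 to 51 genes of the other lists fell and 13 to 17 rose, and 2391 to 2653 of all genes fell and 2555 to 2803 rose. The log2 fold change of Timp3 ran from -0.025 to 0.071 over the 12 fits with a library left out, below 0 when SPD replicate 3 (-0.025) or LPD replicate 1 (-0.0061) or 6 (-0.015) was missing, and was -0.025 with LPD replicate 1 counted as SPD. The cause of these changes was not tested. Genes near 1 CPM (Lox, Loxl4, Mmp9, Timp1, and Adamts12 under LPD) rest on few counts, and that limits their precision.

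The replicate numbers are shared between the diets only as numbers: the correlation of same-numbered libraries ran from -0.054 to 0.097, and 2 of 6 libraries correlated best with their own number. With the replicate number as a block, 25 matrix genes fell and 4 rose (Lox and Loxl4 lost, Col6a2 and Mmp14 gained).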
